A study of Mus musculus with 203 samples.

Results

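The genes described here code for the subunits of voltage-gated sodium channels, voltage-gated calcium channels and HCN channels, together with the sodium leak channel gene Nalcn. They were chosen by symbol from a list of 34 channel genes, and 33 of them are among the 24029 genes counted in each of the single neurons described here (Scn2a was not analysed here). The 33 genes were 8 sodium channel alpha subunits, 3 sodium channel beta subunits, 7 calcium channel alpha1 subunits of the high-voltage-activated kind, 3 alpha1 subunits of T-type calcium channels, 4 alpha2delta subunits, 4 calcium channel beta subunits, 3 HCN channels and Nalcn.

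Voltage-gated sodium channels carry the rapid inward current of the action potential, and their beta subunits adjust gating and anchoring in the membrane. High-voltage-activated calcium channels admit calcium during the action potential and trigger transmitter release, T-type channels open near the resting potential and favor burst firing, and alpha2delta and beta subunits bring the pore-forming alpha1 subunit to the membrane. HCN channels open on hyperpolarization and carry a depolarizing current that shapes rhythmic firing and responses to inhibition.

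The neurons came from the nucleus ambiguus (Amb), a brainstem motor nucleus that sends parasympathetic fibers to the heart and motor fibers to the larynx. Wild-type C57BL/6 mice, given as C57BL/6NCrl in the methods of the study, received cholera toxin B, a retrograde tracer, in the pericardial space or in the cricothyroid muscle of the larynx, and labeled neurons were taken 1 by 1 from brainstem slices at postnatal days 2 to 4 for Smart-seq2, which amplifies and sequences full-length cDNA. The deposited annotation calls 53 heart-labeled neurons ACP and 98 ACV, which are clusters the authors made from these same counts, and 52 neurons labeled from the larynx are called Larynx. Each deposited sample is 1 neuron, and its mouse and plate are not in the annotation, so each type counts as 1 sample: the comparisons below are descriptions with no test and no p-value, and the SD is the spread between neurons, not between mice.

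Levels are given as counts per 1000000 counts outside Rn45s (CPM). Rn45s, a ribosomal RNA precursor gene, was set aside because that gene took a median of 34.3% of counts in ACP, 35.8% in ACV and 58.6% in Larynx neurons. The counts outside it had a median of 1115375 in ACP, 1120512 in ACV and 560892 in Larynx neurons and ranged from 118492 to 2396541. All 9 cholinergic motor neuron markers had reads in each type, and Slc18a3, the vesicular acetylcholine transporter, was read in 100% of neurons of each. The summed level of 6 markers of glutamatergic or inhibitory neurons had a median of 55.8 CPM in ACP, 47.7 in ACV and 243 in Larynx neurons, with ranges of 0 to 1997, 0 to 2222 and 0 to 1239. Median summed levels in ACP, ACV and Larynx neurons were 236, 153.3 and 167.4 CPM for 6 astrocyte markers, 126.8, 86.4 and 104.3 for 5 oligodendrocyte markers (Opalin at 0 in ACP), 39.8, 24.97 and 49.04 for 4 markers of their precursors, 10.3, 19.3 and 18.6 for 6 microglial markers, and 0 in each type for 4 vascular markers (Flt1 at 0 in ACP). Apoe also differed: 11 of 53 ACP, 28 of 98 ACV and 0 of 52 Larynx neurons had over 1800 counts of this glial gene, the limit stated in the methods of the study, which would leave 42, 70 and 52 neurons. The part of these differences in the results below was not tested, and values without the neurons concerned are given where they change a call.

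A gene was counted as different between 2 neuron types where its mean level was at least 2-fold higher in either, among the 11235 genes whose 3 type means averaged at least 5 CPM. Of the 33 channel genes 25 passed that minimum, 11 of these differed in at least 1 comparison and 14 in none. ACP exceeded ACV for 3 of the 25 (12%; Cacna1g, Cacna2d3 and Hcn2), against 7.61% of all genes, and ACV exceeded ACP for 2 (8%; Scn7a and Cacna1e), against 5.33%. ACP exceeded Larynx for 2 (8%; Scn2b and Cacna2d3), against 7.69% of all genes, and Larynx exceeded ACP for 7 (28%; Scn1a, Scn8a, Cacna1d, Cacna1e, Cacna1g, Cacnb4 and Hcn4), against 9.8%. ACV exceeded Larynx for 2 (8%; Scn7a and Scn2b), against 7.25%, and Larynx exceeded ACV for 5 (20%; Scn1a, Scn8a, Cacna1g, Hcn2 and Hcn4), against 12%. Scn7a and Hcn4 passed the minimum through 1 type alone, ACV and Larynx respectively, so the minimum itself favored a difference in them. Without them 23 channel genes remain, with 1 higher in ACV than in ACP, 6 higher in Larynx than in ACP, 1 higher in ACV than in Larynx and 4 higher in Larynx than in ACV. The share higher in Larynx than in ACP neurons was the farthest from that of all genes. The median log2 fold over the 25 channel genes was 0.08 for ACP over ACV, -0.22 for ACP over Larynx and -0.26 for ACV over Larynx, beside 0.01, -0.02 and -0.03 over all genes that passed. Comparisons that share a type are not independent of each other. With Rn45s kept in the totals, the median log2 fold over all genes moved to 0.08, 0.59 and 0.51 for ACP over ACV, ACP over Larynx and ACV over Larynx, and Larynx then exceeded ACP for 2 channel genes (Scn1a and Scn8a) and ACP exceeded Larynx for 3. Among neurons with at most 1800 counts of Apoe, ACP exceeded ACV for 5, which added Cacna1c and Cacnb2. Among neurons with at most 900, Larynx exceeded ACP for 4 (Scn1a, Scn7a, Scn8a and Hcn4). The matching shares of all genes are not given here for these settings or for the 23 genes. Just outside the limit were Cacnb2 at 0.66 for ACP over ACV, Scn3b at 0.77 for ACP over Larynx and Scn7a at 0.84 for Larynx over ACP, while Cacna1d at 1.02 was the member just inside it for Larynx over ACP.

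**Figure D1:**
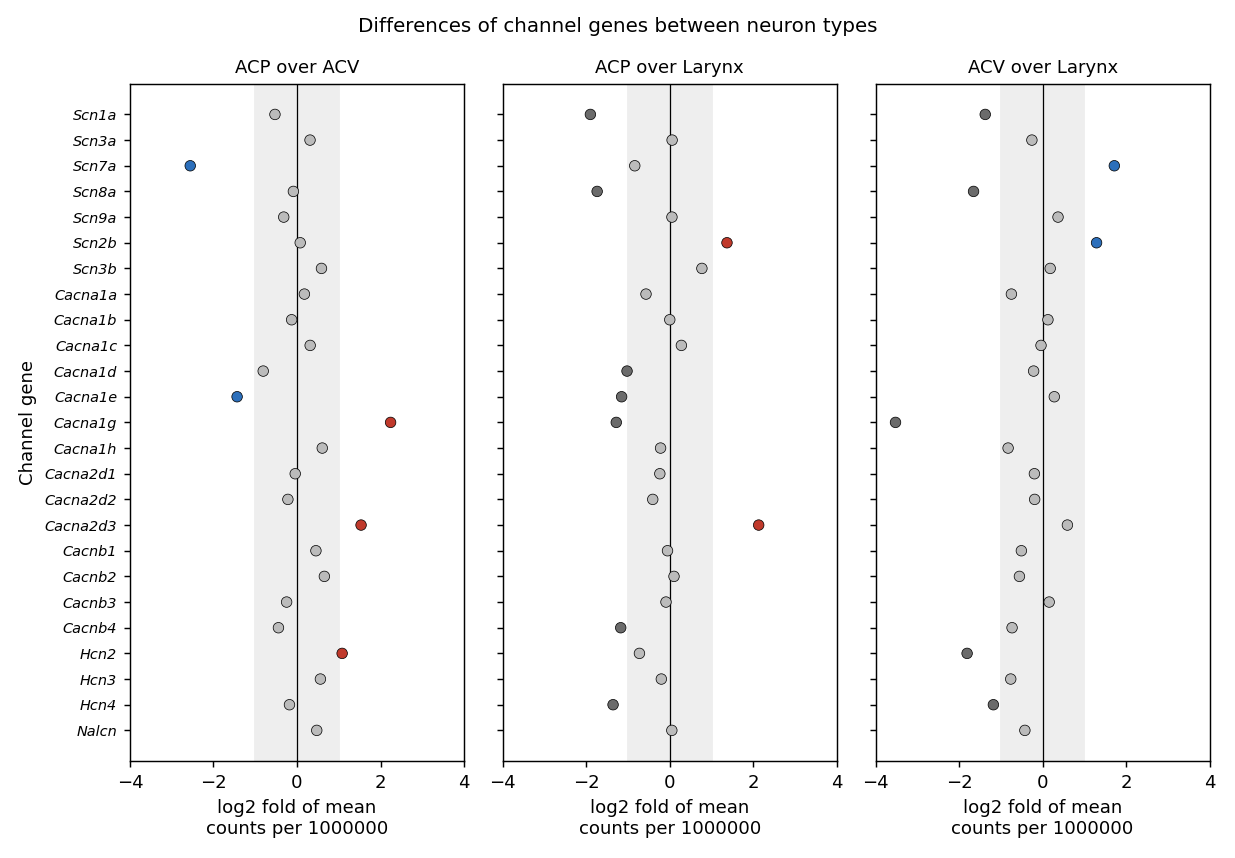
The log2 fold of mean CPM between neuron types is plotted for the 25 channel genes past the minimum level, in 1 panel for each pair of types, with folds under 2 in the shaded band. Colored points are at least 2-fold higher in ACP (red), ACV (blue) or Larynx (dark gray), and Cacna1g in ACV over Larynx neurons lies farthest from 0, at -3.52.

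The sequence before the annotated start is shown for the genes that differed 2-fold in at least 2 comparisons and whose RefSeq start lies within 1000 bases of the start of the gene in GENCODE, so that members which moved alike can be set side by side. These are the 250 bases before the start in build GRCm38.p6, 5′ to 3′ on the strand of the gene, and they overlap annotated exons of the gene by at most 4 bases. Windows that overlapped such exons beyond a set limit were left out. Scn2b and Cacna1e also differed in 2 comparisons but had no window that met these conditions. The Scn8a window lies inside the gene as GENCODE annotates it, upstream of a later start. Capitals mark the GC box GGGCGG and the E-box CAGCTG, read on both strands.
Scn1a: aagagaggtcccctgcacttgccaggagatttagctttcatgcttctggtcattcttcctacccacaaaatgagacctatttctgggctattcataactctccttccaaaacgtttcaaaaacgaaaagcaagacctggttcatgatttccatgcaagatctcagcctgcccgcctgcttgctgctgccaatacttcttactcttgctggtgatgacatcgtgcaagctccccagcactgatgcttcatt
Scn8a: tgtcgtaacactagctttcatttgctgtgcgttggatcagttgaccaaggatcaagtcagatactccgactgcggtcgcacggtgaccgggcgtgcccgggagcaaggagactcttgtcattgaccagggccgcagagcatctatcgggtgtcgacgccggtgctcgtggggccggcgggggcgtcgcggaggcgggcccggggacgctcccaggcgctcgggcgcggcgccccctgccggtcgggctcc
Hcn4: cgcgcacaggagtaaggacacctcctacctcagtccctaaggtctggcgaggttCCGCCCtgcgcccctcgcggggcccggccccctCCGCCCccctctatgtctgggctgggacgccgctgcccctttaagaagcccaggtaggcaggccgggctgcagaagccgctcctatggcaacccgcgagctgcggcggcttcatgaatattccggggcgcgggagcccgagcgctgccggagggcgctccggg
Hcn2: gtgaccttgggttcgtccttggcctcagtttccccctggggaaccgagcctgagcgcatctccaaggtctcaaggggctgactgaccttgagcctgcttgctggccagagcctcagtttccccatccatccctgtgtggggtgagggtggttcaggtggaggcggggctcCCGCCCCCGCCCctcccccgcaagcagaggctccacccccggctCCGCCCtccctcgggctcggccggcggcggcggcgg
Cacna2d3: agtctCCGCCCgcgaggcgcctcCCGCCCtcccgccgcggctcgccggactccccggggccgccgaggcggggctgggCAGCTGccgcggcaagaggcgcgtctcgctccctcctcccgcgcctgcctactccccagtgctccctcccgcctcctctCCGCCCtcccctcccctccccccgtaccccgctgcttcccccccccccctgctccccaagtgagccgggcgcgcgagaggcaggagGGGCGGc
Scn7a: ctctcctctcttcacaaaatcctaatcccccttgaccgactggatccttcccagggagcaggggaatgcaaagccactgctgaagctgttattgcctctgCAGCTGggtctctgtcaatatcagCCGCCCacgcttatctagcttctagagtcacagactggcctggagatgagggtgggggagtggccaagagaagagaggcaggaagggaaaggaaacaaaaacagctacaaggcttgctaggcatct
The windows lie at chr2:66440838-66441087 on the minus strand (Scn1a), chr15:100870395-100870644 on the plus strand (Scn8a), chr9:58822699-58822948 on the plus strand (Hcn4), chr10:79716384-79716633 on the plus strand (Hcn2), chr14:29721865-29722114 on the minus strand (Cacna2d3) and chr2:66784911-66785160 on the minus strand (Scn7a). Scn1a, Scn8a and Hcn4, all higher in Larynx neurons than in both other types, had windows unlike each other: that of Scn1a held 4 CG dinucleotides and 46.8% G and C, that of Scn8a 30 and 68%, and that of Hcn4 25 and 71.2%. The Cacna2d3 window held 30 CG dinucleotides, a number that 5.94% of the 32851 RefSeq windows of this length reach, and 80% G and C. The Hcn2 window held 16 and the Scn7a window 3, and the median over all windows was 6. The GC box was found 4 times before Cacna2d3, 3 times before Hcn2, 2 times before Hcn4 and 1 time before Scn7a, and is present in 32.7% of all windows. The E-box was found 1 time each before Cacna2d3 and Scn7a and is present in 13% of windows, while TATAAA (12.4% of windows) and TAATTA (4.84%) were in none of the 6. Of the 33 channel genes 26 had an entry in the table, and Cacna1g had none.

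A neuron had a median of 17 channel genes at 5 or more reads in ACP, 17 in ACV and 18 in Larynx neurons, and the summed level of all 33 was 2322 ± 1225 (SD, n = 53), 2248 ± 1430 (n = 98) and 2683 ± 1596 CPM (n = 52). The sums differed by less than the spread between neurons. In each type 15 channel genes had a read in at least 80% of neurons. Of these, 14 were shared by all 3 types, and the others were Cacna2d3 in ACP, Cacnb4 in ACV and Cacna1g in Larynx neurons. These counts were not adjusted for depth. With every neuron thinned to equal counts outside Rn45s, which left out 3 Larynx neurons, Cacna2d3 kept its place in ACP (92.5%). Cacnb4 was then at 71.4% in ACV and 77.6% in Larynx neurons, and Cacna1g at 73.5% in Larynx neurons. Of the 14, Scn1a, Scn8a, Cacna1a, Cacna2d2 and Cacnb1 then fell under 80% in ACP, and all of these but Scn8a in ACV. In Larynx neurons Cacna2d2 alone of the 14 did so, at 67.3%. The share of all genes past 80% is not given here. The 8 genes under the minimum level were Scn4a, Scn10a, Scn11a, Scn4b, Cacna1f, Cacna1s, Cacna1i and Cacna2d4.

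**Figure D2:**
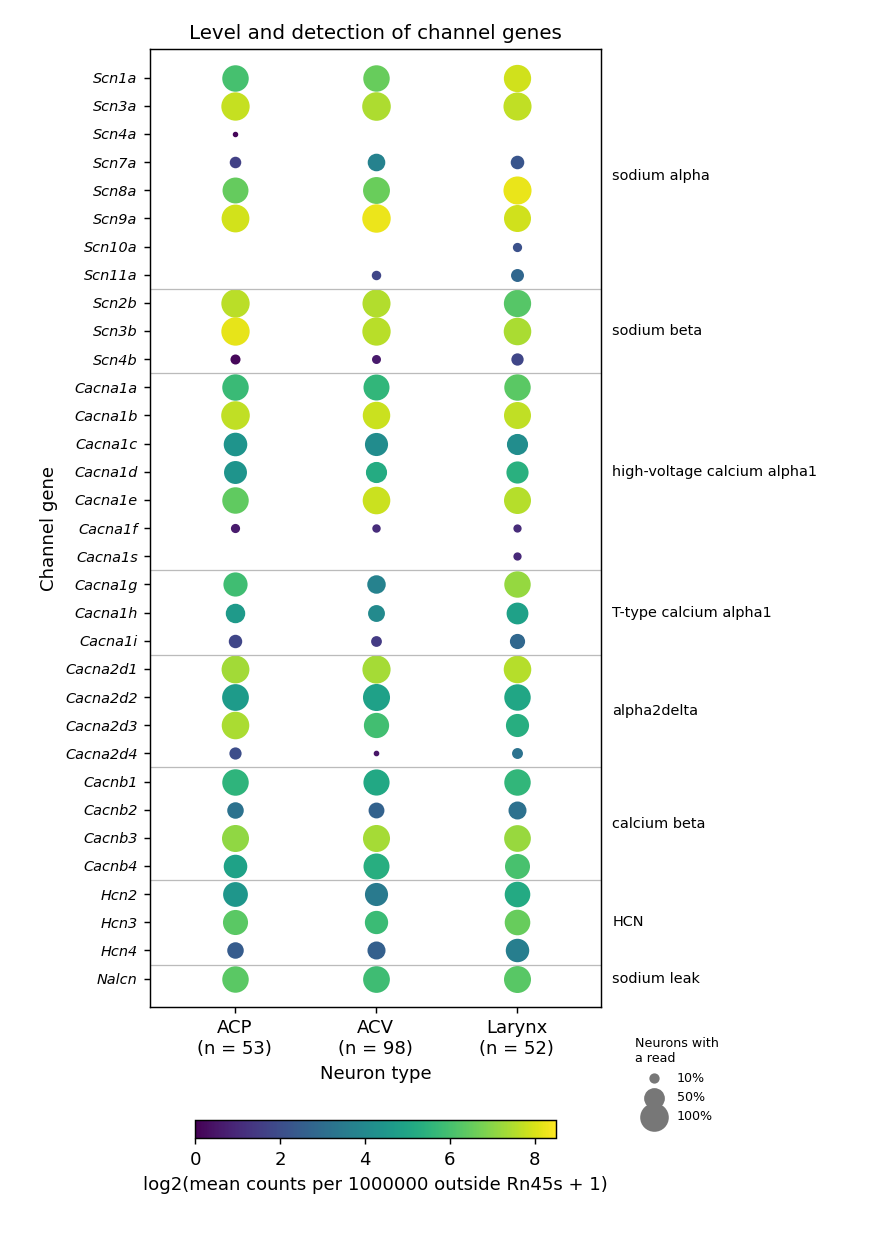
Each row is a channel gene and each column a neuron type, with the area of a dot giving the share of neurons with at least 1 read and its color the log2 of the mean CPM outside Rn45s plus 1. No dot is drawn where no neuron had a read, as for Scn10a and Cacna1s in ACP and ACV neurons.

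Among sodium channel alpha subunits, Scn1a and Scn8a, which code for Nav1.1 and Nav1.6, the channels of the axon initial segment and nodes in many mature neurons, were higher in Larynx neurons than in either heart-labeled type. Scn1a ranged from 0 to 461 CPM in ACP with a median of 31.8, from 0 to 1588 in ACV with a median of 36.7, and from 0 to 918 in Larynx neurons with a median of 150.8. The ranges overlapped, but 5 of 53 ACP and 20 of 98 ACV neurons were above the Larynx median. Its mean was 62.6 ± 81.6 (SD, n = 53) in ACP, 90.2 ± 180.8 (n = 98) in ACV and 234 ± 243 CPM (n = 52) in Larynx neurons, which were 3.73-fold above ACP and 2.59-fold above ACV. With the reads of all neurons summed, the levels were 52.3 CPM (exact 95% Poisson interval 50.5 to 54.1), 74.3 (72.8 to 75.9) and 240 (235 to 246). These intervals take in counting error alone, and amplified copies of a molecule were counted as separate reads. The binomial intervals given below treat neurons as independent draws, although the mouse of each is not known. Neither kind takes in the spread between mice.

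Scn8a ranged from 0 to 474 CPM in ACP with a median of 48.3, from 0 to 831 in ACV with a median of 56.8, and from 0 to 1245 in Larynx neurons with a median of 226. Only 6 of 53 ACP and 11 of 98 ACV neurons lay above the Larynx median, although the ranges overlapped. Its mean was 88.7 ± 115.7 in ACP, 94.2 ± 127.2 in ACV and 296 ± 290 CPM in Larynx neurons (SD, n = 53, 98 and 52), a 3.34-fold and a 3.15-fold difference. Both genes kept these calls in the neurons with at most 50 CPM summed over the inhibitory neuron genes Slc32a1, Gad1, Gad2 and Slc6a5, which were 34 ACP, 75 ACV and 26 Larynx neurons. There Scn1a had means of 65.5, 93.6 and 229 and Scn8a of 82.99, 97.2 and 265 CPM. Within Larynx neurons the levels of Scn1a and Scn8a had a Spearman correlation of 0.61 over 52 neurons, where both levels of a neuron come from 1 library and share its depth, and the median over the 300 pairs of channel genes was 0.18.

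Scn9a and Scn3a, which code for Nav1.7 and Nav1.3, channels prominent in peripheral and in young neurons, were the alpha subunits that led in the heart-labeled neurons. Scn9a had a mean of 241 ± 185.7 in ACP, 301 ± 292 in ACV and 233 ± 282 CPM in Larynx neurons, with medians of 200.7, 226 and 164.3. Scn3a had a mean of 215 ± 240, 173.3 ± 177.8 and 207 ± 189.3 CPM in the same order, with medians of 153.2, 125.02 and 165.03. Neither gene differed 2-fold between any types, and the differences were smaller than the SD between neurons. The exons of Scn9a overlap Gm13629 on the opposite strand, and whether the counting used strand is not given in the sources used here.

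The mix of alpha subunits was compared inside each neuron, as reads per kilobase of exon, which does not depend on the library total. Over the neurons with at least 20 reads of the class, Scn9a made up 41.2% ± 21.9 of the alpha subunits in ACP (SD, n = 53), 44.8% ± 19.5 in ACV (n = 97) and 22.5% ± 20.02 in Larynx neurons (n = 50). Scn1a and Scn8a together made up 24.2% ± 18.7, 25.6% ± 17.9 and 50.5% ± 21.1. They were over 50% of the class in 2 of 53 ACP, 9 of 97 ACV and 28 of 50 Larynx neurons. Scn9a was the leading alpha subunit in 32 of 53 ACP (60.4%, exact 95% binomial interval 46.004 to 73.5), 62 of 97 ACV (63.9%, 53.5 to 73.4) and 12 of 50 Larynx neurons (24%, 13.1 to 38.2). Scn1a led in 0 of 53 ACP, 8 of 97 ACV and 16 of 50 Larynx neurons. The heart-labeled neurons thus carried mostly Scn9a and Scn3a, and the Larynx neurons divided their alpha subunits among 4 genes.

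**Figure D3:**
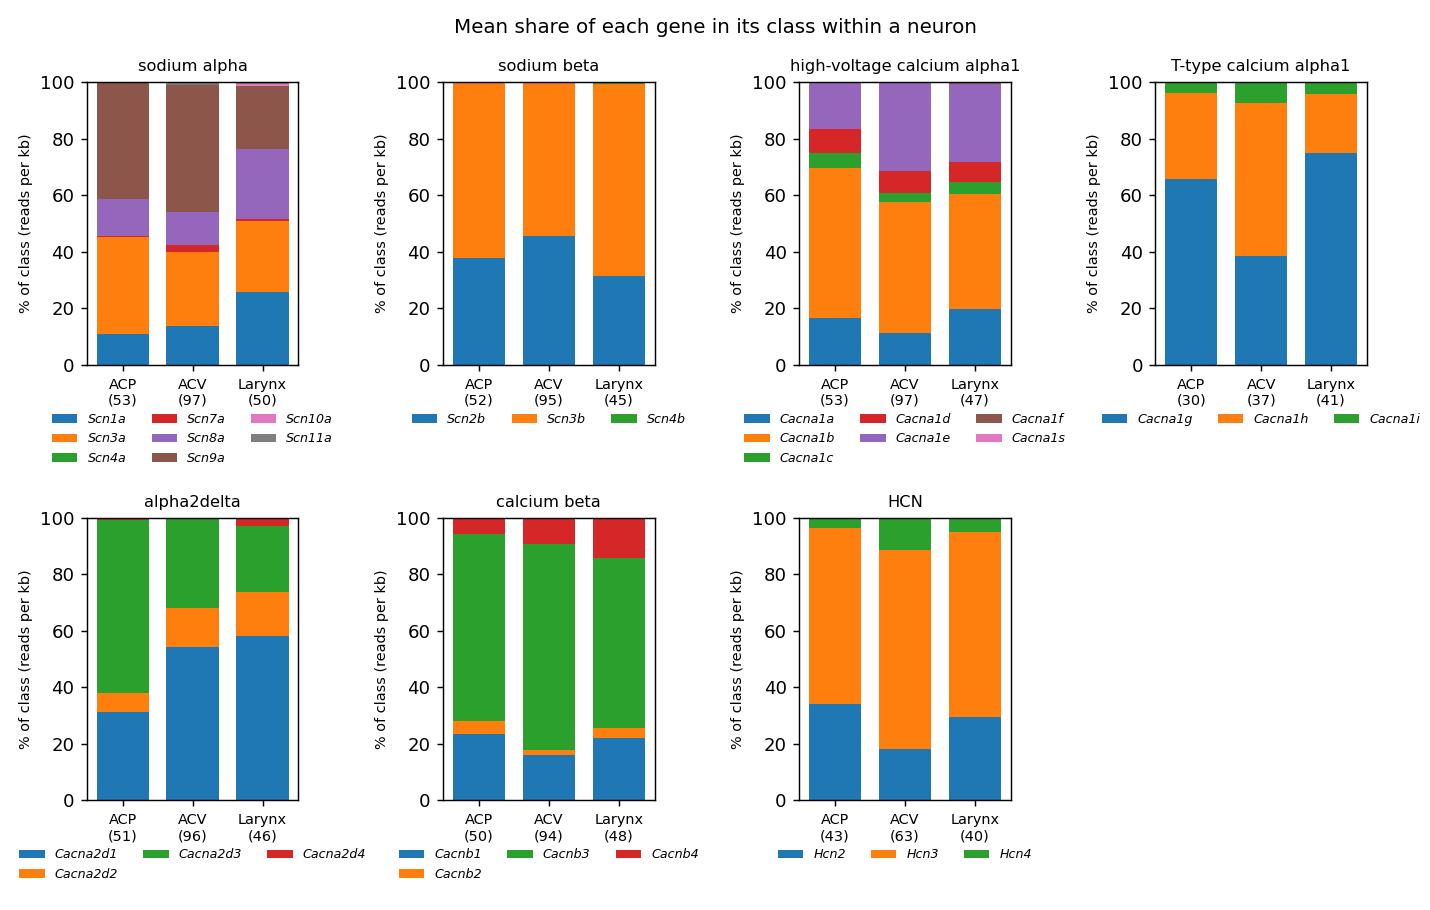
Stacked bars give the mean share of each gene in its class within a neuron, from reads per kilobase of exon, with the number of neurons that had at least 20 reads of the class in parentheses. Larynx neurons had larger shares of Scn1a and Scn8a (25.7% and 24.8%), ACP neurons a larger share of Cacna2d3 (61.1%), and ACV neurons a smaller share of Cacna1g among T-type genes (38.5%).

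Scn7a, which codes for the sodium-sensing channel Nax, was low and patchy. It had a read in 7 of 53 ACP (13.2%, exact 95% binomial interval 5.48 to 25.3), 34 of 98 ACV (34.7%, 25.4 to 44.98) and 10 of 52 Larynx neurons (19.2%, 9.63 to 32.5). With every neuron thinned to 200000 counts outside Rn45s, which left out 3 Larynx neurons, these shares were 7.55%, 25.5% and 16.3%. Its mean was 2.11 ± 13.8 CPM in ACP, 12.4 ± 32.7 in ACV and 3.77 ± 12.5 in Larynx neurons, and its highest values were 100, 191.4 and 79.01. The ACP mean rested on a single neuron: the log2 fold of ACP over ACV was -2.56 with all neurons and -5.83 without it. Among neurons with at most 900 counts of Apoe (26 ACP, 44 ACV and 38 Larynx) the means were 0.125, 15.8 and 5.15 CPM, and among those with at most 1800 they were 0.193, 13.9 and 3.77, with Larynx over 2-fold above ACP in both.

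Scn4a, Scn10a and Scn11a, sodium channel genes of muscle and sensory neurons, were under the minimum level in these neurons. Scn4a, the skeletal muscle channel, had a read in 1 of 53 ACP neurons, in 0 of 98 ACV neurons, which allows a share of up to 3.06% of neurons with a read, not of neurons that express it, and in 0 of 52 Larynx neurons, which allows up to 5.77%. Scn10a, which codes for Nav1.8 of sensory neurons, was read in 0 of 53 ACP neurons, which allows a share of up to 5.66%, in 0 of 98 ACV neurons, which allows up to 3.06%, and in 4 of 52 Larynx neurons. Scn11a, which codes for Nav1.9, was read in 0 of 53 ACP neurons, again up to 5.66%, in 8 of 98 ACV and in 9 of 52 Larynx neurons (17.3%), with a highest value of 205 CPM.

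Among the sodium channel beta subunits Scn2b went the other way from Scn1a and Scn8a. Scn2b, whose product is linked to the alpha subunit by a disulfide bond, ranged from 0 to 1503 CPM in ACP with a median of 117.5, from 0 to 974 in ACV with a median of 118.7, and from 0 to 278 in Larynx neurons with a median of 49.1. The Larynx values lay low in the range of the others, and 13 of 52 Larynx neurons were above the ACP median. Its mean was 194.8 ± 265 in ACP, 184.6 ± 198.8 in ACV and 75.4 ± 75.3 CPM in Larynx neurons, and ACP and ACV were 2.58-fold and 2.45-fold above Larynx. Scn3b, a beta subunit bound without that bond, had means of 289 ± 245, 192.3 ± 190 and 170 ± 142.7 and did not differ 2-fold. Scn4b was read in 5 of 53 ACP, 7 of 98 ACV and 8 of 52 Larynx neurons. Summed over the class, alpha subunits were at 610 ± 448, 673 ± 561 and 983 ± 770 CPM and beta subunits at 484 ± 364, 377 ± 306 and 247 ± 177.1, so the order of the types was opposite in both classes, under each scaling run for the comparisons with Larynx.

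**Figure D4:**
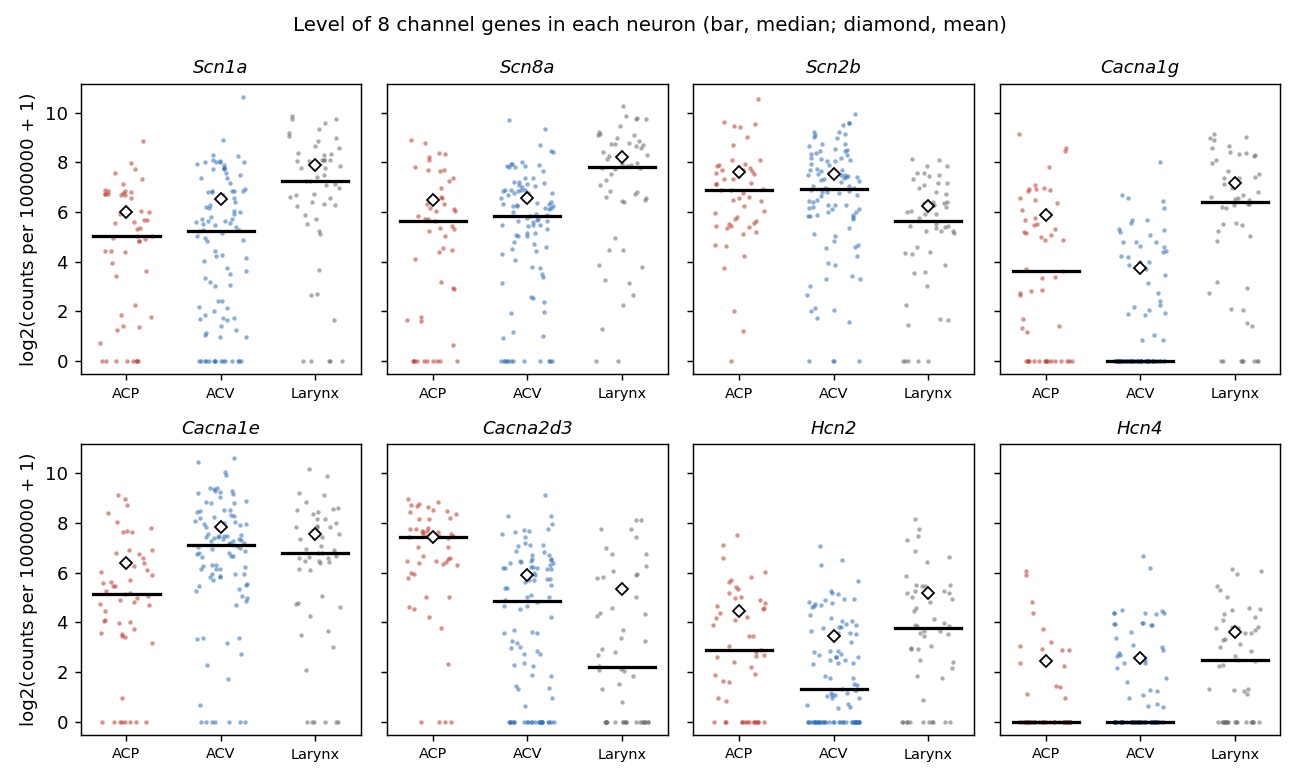
Each point is 1 neuron, plotted as log2 of CPM outside Rn45s plus 1, for 8 channel genes in ACP, ACV and Larynx neurons, with the median as a bar and the mean as a diamond. Every gene has neurons at or near 0 in each type and the types overlap, while the medians of Cacna1g run from 0 in ACV to 83.3 CPM in Larynx neurons.

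High-voltage-activated calcium channels were led by Cacna1b, which codes for the N-type channel of presynaptic terminals. Its mean was 207 ± 221 in ACP, 226 ± 305 in ACV and 207 ± 255 CPM in Larynx neurons, with medians of 120, 144.1 and 100, and the types overlapped throughout. Per length it was the leading alpha1 subunit of its class in 40 of 53 ACP, 65 of 97 ACV and 28 of 47 Larynx neurons, with a mean share of 53.1%, 46.7% and 41.01%. Cacna1a, which codes for the P/Q-type channel, the other main channel of transmitter release, had means of 53.4 ± 93.9, 47.2 ± 94.4 and 79.2 ± 112.1 CPM, and its exons overlap Gm16183 on the opposite strand.

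Cacna1e, which codes for the R-type channel, was the member of this class that was at least 2-fold lower in ACP than in both other types. It ranged from 0 to 557 CPM in ACP with a median of 34.3, from 0 to 1585 in ACV with a median of 136.4, and from 0 to 1168 in Larynx neurons with a median of 108.9. Of 53 ACP neurons 9 were above the ACV median and 11 above the Larynx median. Its mean of 83.95 ± 125.6 in ACP was 2.70-fold below the 227 ± 284 in ACV and 2.22-fold below the 186.8 ± 231 in Larynx neurons. The lower level in ACP than in ACV stayed past 2-fold under each alternative run, whereas leaving out 1 neuron took the comparison with Larynx to a log2 fold of -0.997, just under 2-fold, neurons with at most 1800 and at most 900 counts of Apoe gave -0.99 and -0.53, and neurons with at most 50 CPM of the inhibitory neuron genes -0.80. Within the class its share was 16.4% ± 16.7 in ACP, 30.9% ± 23.05 in ACV and 27.9% ± 21.1 in Larynx neurons.

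The L-type genes Cacna1c and Cacna1d together made up 13.5% ± 18.6 of the class per length in ACP, 10.9% ± 20.5 in ACV and 11.1% ± 14.7 in Larynx neurons. Cacna1c, which codes for Cav1.2, had means of 20.3 ± 33.7, 16.3 ± 28.04 and 16.7 ± 33.4 CPM in ACP, ACV and Larynx neurons, and 23.8, 11.9 and 16.7 in those with at most 1800 counts of Apoe. Cacna1d, which codes for Cav1.3, a channel that opens at more negative voltages than Cav1.2, had means of 20.2 ± 31.5, 35.3 ± 88.1 and 41.03 ± 85.2, with medians of 3.97, 0.725 and 4.00. The medians did not follow the means, and the 2.03-fold difference between Larynx and ACP fell under 2-fold when any of 34 neurons was left out, to a log2 fold of -0.71 at the least, and was -0.41 in neurons with at most 900 counts of Apoe. In neurons with at most 50 CPM of the inhibitory neuron genes its means were 15.8, 33.2 and 35.7, with ACV also over 2-fold above ACP. The exons of Cacna1d overlap Chdh on the opposite strand. Cacna1f was read in 4 of 53 ACP, 6 of 98 ACV and 3 of 52 Larynx neurons, and Cacna1s, the skeletal muscle channel, in 0 of 53 ACP and 0 of 98 ACV neurons, which allows shares of up to 5.66% and 3.06%, and in 3 of 52 Larynx neurons.

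By summed level, T-type channels were the class that differed most between the types. Cacna1g, which codes for Cav3.1, ranged from 0 to 567 CPM in ACP with a median of 11.3, from 0 to 254 in ACV with a median of 0, and from 0 to 563 in Larynx neurons with a median of 83.3. Only 4 of 98 ACV neurons and 12 of 53 ACP neurons were above the Larynx median, so most ACV neurons were near 0, ACP neurons lay between and Larynx neurons were high. Its mean was 57.9 ± 106.9 in ACP, 12.3 ± 31.9 in ACV and 140.7 ± 157.9 CPM in Larynx neurons. ACP was 4.72-fold above ACV, Larynx 11.5-fold above ACV and Larynx 2.43-fold above ACP. With the reads summed the levels were 47.2 (exact 95% Poisson interval 45.6 to 48.9), 9.76 (9.20 to 10.3) and 127.1 CPM (123.2 to 131.1).

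Cacna1g had a read in 37 of 53 ACP (69.8%, exact 95% binomial interval 55.7 to 81.7), 38 of 98 ACV (38.8%, 29.1 to 49.2) and 44 of 52 Larynx neurons (84.6%, 71.9 to 93.1). Thinned to 200000 counts outside Rn45s, the shares were 60.4%, 32.7% and 73.5%, in the same order. Both differences from ACV stayed past 2-fold under each alternative run. The difference between Larynx and ACP did not, with a log2 fold of ACP over Larynx of -1.28 with all neurons, -0.63 with Rn45s kept in the totals and -0.39 in neurons with at most 900 counts of Apoe. In those neurons the means were 81.1 in ACP, 6.35 in ACV and 106.6 CPM in Larynx neurons. Cacna1g and Cacna1a had a Spearman correlation of 0.69 over the 52 Larynx neurons, again with both levels from 1 library, and this was the highest of the 300 pairs there.

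Cacna1h, which codes for Cav3.2, had means of 23.4 ± 61.3, 15.4 ± 38.8 and 27.2 ± 40.3 CPM and did not differ 2-fold, and its exons overlap Tpsg1 on the opposite strand. In neurons with at most 900 counts of Apoe ACP was over 2-fold above ACV, with means of 34.9 and 16.03 CPM. Larynx was over 2-fold above ACV in neurons with at most 50 CPM of the inhibitory neuron genes (32.9 against 15.9) and in those with at most 1800 counts of Apoe (27.2 against 13.5). Cacna1i, which codes for Cav3.3, was read in 10 of 53 ACP, 11 of 98 ACV and 13 of 52 Larynx neurons. Counting the 3 genes together, no T-type gene reached 5 reads in 14 of 53 ACP (26.4%), 52 of 98 ACV (53.1%) and 9 of 52 Larynx neurons (17.3%). The summed T-type level was 83.7 ± 151.01, 29.4 ± 51.7 and 174.1 ± 177.9 CPM, 2.85-fold higher in ACP and 5.92-fold higher in Larynx than in ACV neurons. In the neurons with at least 20 T-type reads, Cacna1g was the leading gene in 22 of 30 ACP, 15 of 37 ACV and 34 of 41 Larynx neurons, and Cacna1h led in 20 of the 37 ACV neurons.

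Among alpha2delta subunits Cacna2d3 was at least 2-fold higher in ACP neurons than in both other types. It ranged from 0 to 493 CPM in ACP with a median of 170.7, from 0 to 563 in ACV with a median of 27.8, and from 0 to 278 in Larynx neurons with a median of 3.54. Although the ranges overlapped, 44 of 53 ACP neurons were above the ACV median and 49 above the Larynx median, while 9 of 98 ACV and 5 of 52 Larynx neurons were above the ACP median. Its mean of 171.7 ± 137.2 in ACP was 2.90-fold above the 59.3 ± 86.7 in ACV and 4.37-fold above the 39.3 ± 71.3 in Larynx neurons, and both differences stayed past 2-fold under each alternative run. It had a read in 92.5% of ACP (exact 95% binomial interval 81.8 to 97.9), 76.5% of ACV (66.9 to 84.5) and 63.5% of Larynx neurons (48.96 to 76.4).

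Cacna2d1, an alpha2delta subunit bound by gabapentin, did not follow it. Its means were 158.1 ± 150, 162.8 ± 171.1 and 186.6 ± 192.6 CPM in ACP, ACV and Larynx neurons. Per length Cacna2d3 made up 61.1% ± 25.9 of the alpha2delta class in ACP, 31.96% ± 29.8 in ACV and 23.3% ± 30.5 in Larynx neurons (SD, n = 51, 96 and 46), and Cacna2d1 31.2%, 54.2% and 58.03%. Cacna2d3 was the leading gene in 40 of 51 ACP (78.4%, exact 95% binomial interval 64.7 to 88.7), 37 of 96 ACV (38.5%, 28.8 to 49.03) and 10 of 46 Larynx neurons (21.7%, 10.9 to 36.4). Cacna2d2 had means of 23.8 ± 33.4, 27.6 ± 48.1 and 31.5 ± 43.9 CPM, with exons that overlap Gm17141 on the opposite strand. Cacna2d4 was read in 8 of 53 ACP, 2 of 98 ACV and 6 of 52 Larynx neurons.

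The calcium channel beta subunits, which bind the alpha1 subunit inside the cell, were led by Cacnb3 in every type. Its means were 136.4 ± 105.9, 161.98 ± 133.3 and 145.3 ± 156.02 CPM in ACP, ACV and Larynx neurons, and per length it was the leading gene in 41 of 50, 85 of 94 and 34 of 48 neurons. Cacnb1 had means of 45.1 ± 42.7, 32.96 ± 34.1 and 46.9 ± 53.5 CPM, and Cacnb2, whose exons overlap Gm10849 on the opposite strand, 8.29 ± 21.8, 5.27 ± 19.3 and 7.74 ± 16.7. None of these 3 differed 2-fold, although in neurons with at most 900 counts of Apoe the means of Cacnb2 were 7.22, 3.17 and 8.82, over 2-fold lower in ACV than in both other types, as were the 8.94, 2.49 and 7.74 with at most 1800. Cacnb4, whose exons overlap A430018G15Rik on the opposite strand, had means of 28.7 ± 50.9, 39.03 ± 55.4 and 64.8 ± 104.7, with Larynx 2.26-fold above ACP. Without 1 neuron the log2 fold of ACP over Larynx was -0.91 in place of -1.17. It was -0.99 and -0.41 in neurons with at most 1800 and at most 900 counts of Apoe. In those with at most 50 CPM of the inhibitory neuron genes it was -0.76. This difference stayed past 2-fold under 5 of the 10 alternatives run, and its weakest log2 fold among them was -0.29.

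Among the HCN genes Hcn3 led, with a mean share per length of 62.4% ± 38.7 in ACP, 70.2% ± 35.4 in ACV and 65.5% ± 30.4 in Larynx neurons. Hcn3 had means of 79.9 ± 114.7, 54.2 ± 79.01 and 91.97 ± 108.6 CPM in ACP, ACV and Larynx neurons and did not differ 2-fold, and its exons overlap Pklr on the opposite strand. Hcn2, a channel that responds strongly to cyclic AMP, ranged from 0 to 183.2 in ACP with a median of 6.49, from 0 to 135.5 in ACV with a median of 1.46, and from 0 to 284 in Larynx neurons with a median of 12.6. Of 98 ACV neurons 25 were above the Larynx median, and 37 of 53 ACP neurons were above the ACV median. Its mean of 9.995 ± 19.9 CPM in ACV was 2.12-fold below the 21.1 ± 34.6 in ACP and 3.50-fold below the 34.99 ± 58.3 in Larynx neurons. The difference between ACP and ACV ended when any of 3 neurons was left out, with a log2 fold of 0.85 at the least in place of 1.08.

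Hcn4, the main HCN gene of the cardiac pacemaker, was read in fewer neurons than the other HCN genes. It ranged from 0 to 65.6 CPM in ACP, from 0 to 102.02 in ACV and from 0 to 69.6 in Larynx neurons, with medians of 0, 0 and 4.55. A read was seen in 16 of 53 ACP (30.2%, exact 95% binomial interval 18.3 to 44.3), 36 of 98 ACV (36.7%, 27.2 to 47.1) and 34 of 52 Larynx neurons (65.4%, 50.9 to 78.03), and after thinning in 20.8%, 24.5% and 51.02%. The larger share in Larynx neurons was thus also seen with totals outside Rn45s made equal, which left out 3 Larynx neurons. Its means were 4.37 ± 12.6, 4.95 ± 13.5 and 11.2 ± 16.98 CPM, with Larynx 2.56-fold above ACP and 2.26-fold above ACV. With Rn45s kept in the totals both log2 folds fell under 2-fold, from -1.36 to -0.95 for ACP over Larynx and from -1.18 to -0.84 for ACV over Larynx. The summed HCN level was 105.4 ± 120, 69.1 ± 84.7 and 138.2 ± 131.5 CPM, and its log2 fold for ACP over Larynx changed sign, from -0.39 to 0.13, with Rn45s kept in the totals.

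Nalcn, which codes for the channel that carries a background sodium current and sets the resting potential of many neurons, did not differ 2-fold. Its means were 79.3 ± 88.1, 57.2 ± 60.8 and 76.7 ± 113.1 CPM in ACP, ACV and Larynx neurons, with medians of 58.8, 38.3 and 46.5. It had a read in 84.9%, 86.7% and 88.5% of neurons.

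A list of 25 partner genes was counted beside the channel genes, and 20 passed the minimum level. The list takes in Cacng genes such as Cacng2, so its shares are not those of partners of sodium, calcium and HCN channels alone. ACP exceeded ACV 2-fold for 0 of the 20, against 7.61% of all genes, and ACV exceeded ACP for 1 (5%, against 5.33%), Stac2, which codes for an adaptor of L-type channels. ACP and ACV each exceeded Larynx for 1 (5%, against 7.69% and 7.25%), Fgf13, which codes for a cytoplasmic modulator of sodium channels and had means of 950 CPM in ACP, 971 in ACV and 453 in Larynx neurons. Larynx exceeded ACP for 4 (20%, against 9.8%; Pex5l, Cacng2, Stac2 and Rims2) and ACV for 6 (30%, against 12%; Fgf14, Pex5l, Cacng2, Cacng5, Stac2 and Rims1). Pex5l, which codes for the HCN channel partner TRIP8b, had means of 10.8, 7.85 and 25.6 CPM. Cacng2, which codes for stargazin, a partner of AMPA receptors, had means of 18.1, 30.04 and 79.7, and Stac2 3.51, 20.99 and 43.5. The median log2 fold over the 20 genes was -0.02 for ACP over ACV, -0.51 for ACP over Larynx and -0.53 for ACV over Larynx.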

How the data were processed

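Single Amb neurons were sequenced by Smart-seq2, and the authors aligned the reads to mm10 with STAR 2.6.1d. The authors deposited raw read counts of 24029 genes in each neuron, without normalization. The counting program, the annotation and the use of strand are not given in the sources used here. A deposited table named CPM was not used. Neuron types were taken from the deposited cluster annotation.

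Counts were scaled to 1000000 counts outside Rn45s in each neuron (CPM). Genes whose 3 type means averaged at least 5 CPM were compared, and a 2-fold difference in means was counted. No test was made, since neither mouse nor plate is given and ACP and ACV were clustered from these counts. The members, their classes, the 25 partner genes and the marker lists were chosen with earlier results of these data known. Members past the minimum are given in full, members under it by detection, and partners where they differed 2-fold.

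Shares within a class used reads per kilobase of exon (GENCODE vM21 basic, GRCm38) in neurons with at least 20 reads of the class. Shares of neurons have exact Clopper-Pearson intervals and summed reads exact Poisson intervals, at 95%, and a count of 0 was given the limit of 3 neurons. Thinning was to 200000 counts outside Rn45s.

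Alternatives were totals with Rn45s, edgeR 4.0.16 TMM sizes, DESeq2 1.42.0 size factors, summed reads, thinned counts, at most 900 counts of Apoe, totals of at least 1000000, no minimum level or 20 CPM, a 1.5-fold limit, and 5 reads for detection. At most 1800 counts of Apoe, at most 50 CPM of inhibitory neuron genes, means trimmed by 10% at each end, and leaving out each neuron in turn were added after seeing the data. The fold calculation was tested on simulated data. The work used Python 3.11.15, numpy 2.4.6, pandas 2.3.3, scipy 1.17.1, matplotlib 3.10.9 and R 4.3.3.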

Additional observations from a re-analysis of the deposited data

How the results depend on the processing

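All 21 differences of at least 2-fold kept their direction under the 10 alternatives run for them, and 15 stayed past 2-fold under each. The 6 that did not were Cacna1d, Cacna1e, Cacna1g, Cacnb4 and Hcn4 between ACP and Larynx and Hcn4 between ACV and Larynx. Leaving out single neurons ended 4 of the 21: Cacna1d, Cacna1e and Cacnb4 between ACP and Larynx and Hcn2 between ACP and ACV. With Rn45s in the totals ACV exceeded ACP for 1 channel gene and Larynx exceeded ACP for 2, and with summed reads Larynx exceeded ACV for 8. With at most 900 counts of Apoe ACP exceeded ACV for 5 and Larynx exceeded ACP for 4, and with at most 1800 counts ACP exceeded ACV for 5. With trimmed means ACV exceeded ACP for 1 and Larynx for 1, as with a minimum of 20 CPM (1 and 1). Without a minimum level ACV exceeded ACP for 5, and Larynx exceeded ACP for 12 and ACV for 9. At 1.5-fold ACP exceeded ACV for 6 and Larynx exceeded ACV for 9. Genes with at least 5 reads in 80% of neurons numbered 9 in ACP and 9 in Larynx neurons, against 15 in each with at least 1 read. The cause of these changes was not tested, apart from the minimum level and the fold, which set how many genes can be counted. The share of all genes under each alternative is not given here. A change in the channel genes thus cannot be told apart from a change shared by all genes. No paired analysis was possible because the neurons carry no shared replicate numbers and no test was made. The counts outside Rn45s were lowest in Larynx neurons by the median, and the part of depth in detection was examined only by thinning.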
